A study of Homo sapiens with 4 samples.

Results

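The genes *ALCAM*, *BCAT1*, *COL12A1*, *EBF3*, *ONECUT1* and *PTHLH* were examined on expression arrays of the human glioblastoma cell line LN229, in which *SOX2* or no gene had been targeted by siRNA. The study groups these 6 genes with 5 others as SOX2 targets that glioblastoma and embryonic stem cells share and whose expression changed on these arrays. The study applied a 2-fold cutoff to these same 4 arrays when it drew up that list, so the direction and the size of the changes below describe the choice of genes and are not independent evidence. The members were found by their symbols among the 33096 gene probes of the array, which carry 20481 different gene symbols, and each of the 6 genes had 1 probe.

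The cells had been transfected with an siRNA, a synthetic RNA duplex that leads to cleavage of the transcript it matches. In 1 group it was directed against *SOX2* (SOX2 knockdown, 2 arrays), and in the other it was a control siRNA without a target (mock knockdown, 2 arrays). According to the methods the 2 arrays of a group were biological replicates with separate transfections, all of 1 cell line grown in DMEM. RNA was hybridised to 1-colour oligonucleotide arrays read by chemiluminescence, and signals are given here relative to the 75th percentile of the gene probes on their array. The signal-to-noise ratio (S/N) of a spot was used as the measure of detection, and between 63.5% and 68.9% of the probes on an array had S/N over 3. A probe was compared where S/N exceeded 3 on both arrays of at least 1 group, which held for 21256 probes and for all 6 member probes. The labels' treatment field names SW620, a colon cancer line, while the titles, descriptions and cell line field name LN229. Of 8 markers of glioma and mesenchymal-like glial cells, 7 or 8 were detected on each array. Of 9 markers of mature astrocytes, oligodendrocytes and neurons, 6 or 7 were detected on each array. Of 10 markers of colon epithelium, 1 to 5 were detected on each array. *VIL1* was detected on all 4 arrays, *CDX1*, *CDX2* and *LGALS4* on 2, *EPCAM*, *GPA33* and *CEACAM5* on 1, and *CDH1*, *KRT20* and *CDH17* on none.

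The 6 genes have unrelated functions. SOX2 is an HMG-box transcription factor that binds short AT-rich motifs in the minor groove of DNA, keeps stem and neural progenitor cells undifferentiated and is expressed in many gliomas. ALCAM is a cell surface adhesion molecule with immunoglobulin domains, the product of *COL12A1* is an extracellular matrix collagen, and EBF3 and ONECUT1 are transcription factors of neurogenesis and of liver and pancreas development. BCAT1 is an enzyme of amino acid metabolism, and *PTHLH* encodes a secreted hormone-like peptide.

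The study assigned SOX2-bound regions to their nearest genes and then searched those regions for a shared 8-base motif, which was no criterion for choosing the 6 genes. Sites of this motif are shown first, as the sequence within bound regions assigned to these genes. The list of sites was read in a shortened copy, in which 6 sites belonged to regions of 3 of the 6 genes. Capitals mark the TG that all 6 sites share at the third and the fourth base.
*BCAT1*, site A: atTGtatt
*BCAT1*, site B: aaTGctta
*BCAT1*, site C: ttTGtatt
*EBF3*: atTGattt
*ONECUT1*, site A: taTGcatt
*ONECUT1*, site B: ttTGctta
As the copy was shortened, this is not a full count, and sites of *ALCAM*, *COL12A1* and *PTHLH* were not analysed here. Letters shared by several sites are those of the search that found them and carry no further information.

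RefSeq promoter sequences (GRCh38.p14) matched all 6 genes at 10 transcription starts, 5 of them of *BCAT1*, whose windows overlap in part. The 250 bases upstream of each start were searched on both strands for ACAAT (reverse complement ATTGT) and ACAAAG (reverse complement CTTTGT), letters typical of sites bound by SOX proteins. ACAAT was found upstream of 2 of the 10 starts, both of *BCAT1*, and ACAAAG upstream of none. Over all 35116 starts in the RefSeq set, 24.6% of the windows held ACAAT and 13.7% held ACAAAG. The window upstream of the most distal *BCAT1* start, with its match in capitals, and that of *ALCAM*, which has no match, are shown as an example of each kind, 5′ to 3′ on the strand of the gene.
*BCAT1*, chr12:24949341-24949590, minus strand: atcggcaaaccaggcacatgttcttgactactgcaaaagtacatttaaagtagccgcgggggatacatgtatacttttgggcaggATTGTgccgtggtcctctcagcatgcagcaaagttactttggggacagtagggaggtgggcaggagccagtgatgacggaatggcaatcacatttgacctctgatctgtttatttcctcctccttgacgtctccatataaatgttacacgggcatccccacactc
*ALCAM*, chr3:105366659-105366908, plus strand: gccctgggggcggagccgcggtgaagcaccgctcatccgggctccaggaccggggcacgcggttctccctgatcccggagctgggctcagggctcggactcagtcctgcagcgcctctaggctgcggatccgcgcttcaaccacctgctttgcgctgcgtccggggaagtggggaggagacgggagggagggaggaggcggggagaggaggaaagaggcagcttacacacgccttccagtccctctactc
The 2 windows also differ in base composition. G and C made up 48.8% of the *BCAT1* window and 68.8% of the *ALCAM* window, beside a median of 58% over all windows. A match is a description of the letters in the window, and the arrays do not measure binding.

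The targeted gene was examined first. The *SOX2* probe read 0.472 and 0.709 in mock cells against 0.212 and 0.151 in knockdown cells. The groups were apart, with a knockdown mean of 0.181 ± 0.0437 (SD, n = 2) and a mock mean of 0.59 ± 0.168 (SD, n = 2). The log2 change was -1.69 (SE 0.28), or 0.307 of the mock mean, with an adjusted p of 0.117 in limma. The S/N on the knockdown arrays was 3.17 and 3.06, so that the signal remaining there was close to the limit of detection.

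After *SOX2* knockdown, 3 of the 6 genes (*ALCAM*, *COL12A1*, *EBF3*) had lower signals and 3 (*BCAT1*, *ONECUT1*, *PTHLH*) had higher signals, and the groups did not overlap for any of the 6. Among all probes compared, the groups did not overlap in 21.2% with higher and in 25.6% with lower signals after knockdown. A ratio of the group means past 2-fold was reached by 4 of the 6 genes, 3 higher and 1 lower, where 1.57% of all probes were past 2-fold higher and 1.02% past 2-fold lower. Since the study picked the genes with this cutoff, nothing can be read from the difference between these shares. The 2 genes that were not past 2-fold lay just outside it, with signals in the mock cells 1.9990 times (*EBF3*) and 1.9874 times (*ALCAM*) those in the knockdown cells. The gene just inside it was *COL12A1*, at 2.1265 times. The study, which processed the arrays differently, gives *EBF3* and *ALCAM* ratios slightly past 2-fold. Its ratio for *ONECUT1* lies closer to 2-fold than the one given below. All 6 genes change in the same direction in the study's list as here.

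The limma test with Benjamini-Hochberg adjustment over all 21256 probes gave no probe an adjusted p under 0.05. The smallest adjusted p was 0.0507, and 3580 probes (16.8%) had an unadjusted p under 0.05. All 6 genes had an unadjusted p under 0.05 in limma, between 0.000167 (*PTHLH*) and 0.0268 (*ONECUT1*). When the variance was allowed to follow the mean signal, limma called 286 probes at an adjusted p under 0.05, and *PTHLH* (0.0261), *ALCAM* (0.035), *COL12A1* (0.0431) and *EBF3* (0.0431) were among them. The study picked the 6 genes by their change on these same arrays, so their p-values describe that choice and are not independent evidence. With 2 arrays per group, each value below has limited precision.

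**Figure D1:**
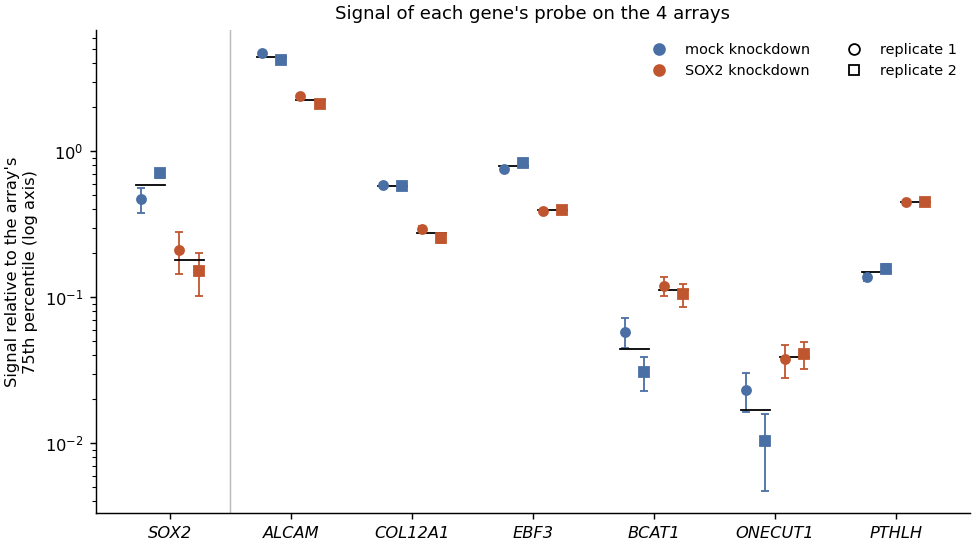
Signal of the *SOX2* probe and of the 6 genes on each array, relative to the array's 75th percentile (log axis); points are single arrays, bars the error that the scanner software gave the spot, and black lines the group means (n = 2). The groups are apart for every gene shown, and the 2 mock arrays of *BCAT1* and *ONECUT1* lie farther from each other than those of the other 4 genes.

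*ALCAM*, also called CD166, encodes an adhesion molecule that binds itself on neighbouring cells and CD6 on T cells, and it takes part in axon growth. Its signal was 4.68 and 4.21 in mock cells against 2.38 and 2.09 in knockdown cells. The lower of the mock arrays was 1.77 times the higher of the knockdown arrays, and replicates differed by no more than 1.14-fold. The mean was 4.44 ± 0.331 (SD, n = 2) in mock cells and 2.24 ± 0.205 (SD, n = 2) in knockdown cells, a log2 change of -0.99 (SE 0.15) with an adjusted p of 0.105 in limma. The probe was well above background throughout. S/N was between 40.2 and 74.6, and the scanner's error of the spot did not exceed 2.49% on any array.

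*COL12A1* encodes the chain of type XII collagen, which belongs to the FACIT collagens. These attach to the surface of collagen fibrils and do not form fibrils themselves. Its probe read 0.587 and 0.578 in mock cells and 0.292 and 0.255 in knockdown cells. The mock replicates were nearly equal (1.02-fold apart), and both knockdown arrays were well below them. The log2 change was -1.09 (SE 0.14), with an adjusted p of 0.0961 in limma, and the group means were 0.582 ± 0.00617 and 0.274 ± 0.0259 (SD, n = 2 each). Spot errors were between 3.48% and 7.01%.

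*EBF3* encodes a helix-loop-helix transcription factor of the early B-cell factor family, which acts in the differentiation of neurons and is silenced in several tumours. Its signal was 0.75 and 0.825 on the mock arrays against 0.389 and 0.399 on the knockdown arrays. The knockdown replicates were 1.03-fold apart and the mock replicates 1.1-fold apart, and the groups did not overlap. The fitted log2 change of *EBF3* was -1.0 (SE 0.13), with an adjusted p of 0.0979 in limma. The group means were 0.787 ± 0.053 for mock and 0.394 ± 0.00761 for knockdown (SD, n = 2 each).

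*PTHLH* encodes parathyroid hormone-related protein, which is secreted, acts through the receptor that it shares with parathyroid hormone and causes the high blood calcium of some cancers. It showed the largest of the 6 changes. Its probe read 0.138 and 0.157 in mock cells and 0.446 and 0.448 in knockdown cells, with S/N between 13.8 and 53.5. The lower knockdown array was 2.83 times the higher mock array, and the knockdown replicates were 1.01-fold apart. The mean of *PTHLH* was 0.447 ± 0.00185 (SD, n = 2) after knockdown and 0.148 ± 0.0134 (SD, n = 2) in mock cells, a ratio of 3.02 and a log2 change of 1.60 (SE 0.14). The adjusted p was 0.0661 in limma, and *PTHLH* ranked 98 among the 21256 probes compared by the size of the increase on the log2 scale.

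*BCAT1* encodes the cytosolic aminotransferase that moves the amino group of leucine, isoleucine and valine to alpha-ketoglutarate, and gliomas with normal isocitrate dehydrogenase are known to express it. Its probe was dim, with S/N between 3.77 and 6.88. It read 0.0583 and 0.0309 in mock cells against 0.12 and 0.105 after knockdown. The groups did not overlap, but the mock replicates were 1.89-fold apart, a wider gap than in 95.0% of the probes compared. The ratio of the means was 2.53 and the log2 change 1.41 (SE 0.34), with an adjusted p of 0.169 in limma. The spot errors were between 14.5% and 26.6%. The change rests in part on the dimmer mock array, since *BCAT1* was past 2-fold with any other array left out and had a log2 change of 0.95 without mock replicate 2. It also was not past 2-fold after normexp background correction of the raw reading (log2 change 0.42), and its groups then overlapped.

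*ONECUT1*, also known as hepatocyte nuclear factor 6, encodes a transcription factor with a cut domain and a homeodomain. It was close to background on all 4 arrays. It read 0.0233 and 0.0103 in mock cells against 0.0377 and 0.0406 after knockdown. The groups did not overlap, but S/N was 1.84 on mock replicate 2, so that the probe was not well above background there. The *ONECUT1* probe was compared only because S/N exceeded 3 on both knockdown arrays. Before scaling, the deposited signals of *ONECUT1* were 0.14, 0.07, 0.25 and 0.24 for mock replicates 1 and 2 and knockdown replicates 1 and 2. They are written in steps of 0.01, which is a coarse step at that level, and the spot errors were between 21.0% and 54.2%. The ratio of the means was 2.33 and the log2 change 1.34 (SE 0.41), with an adjusted p of 0.233 in limma. With normexp background correction the log2 change was -0.32, with a floor of 0.05 on the scaled signal it was 0.00, and in both the groups overlapped. Without mock replicate 2 the log2 change of *ONECUT1* was 0.74. The direction therefore depends on how signals near background are treated.

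**Figure D2:**
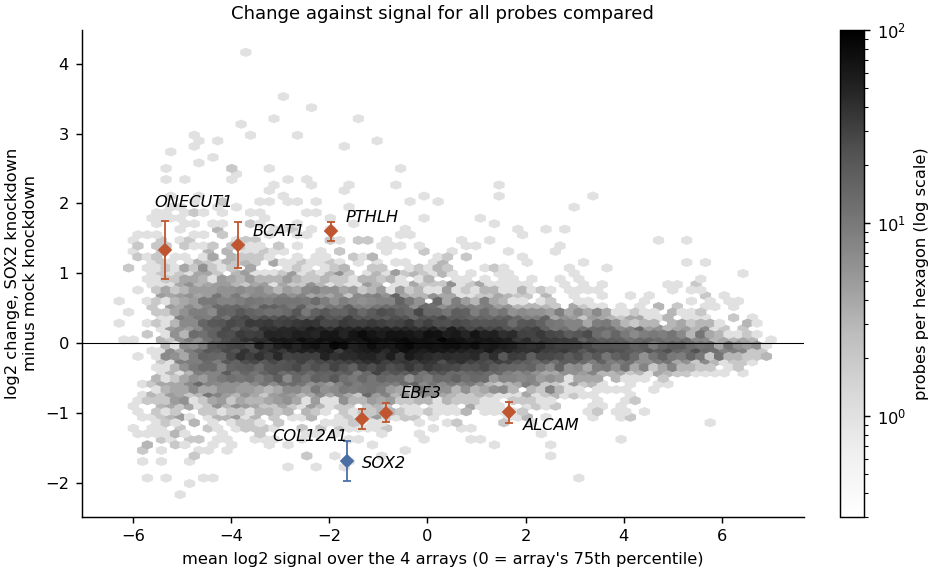
The log2 change of all 21256 probes compared against their mean log2 signal over the 4 arrays, as a density of probes; diamonds are *SOX2* (blue) and the 6 genes (orange) with the standard error of limma. *ALCAM*, *COL12A1*, *EBF3* and *PTHLH* lie outside the dense band of probes at their signal, while *BCAT1* and *ONECUT1* lie towards the dim end, where the changes of all probes scatter more widely.

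The 6 genes thus differ in how firmly they were measured. The standard error of the log2 change was 0.13 to 0.15 for *ALCAM*, *COL12A1*, *EBF3* and *PTHLH*, 0.34 for *BCAT1* and 0.41 for *ONECUT1*. *PTHLH* was past 2-fold with each of the 4 arrays left out, with log2 changes between 1.51 and 1.69. The changes of *ALCAM* (-1.09 to -0.90), *COL12A1* (-1.19 to -0.99) and *EBF3* (-1.07 to -0.93) stayed within a narrow range when 1 array was left out, but this range crosses the 2-fold line for all 3. Normexp background correction gave smaller changes for all 6 genes, and with it none of them was past 2-fold.

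**Figure D3:**
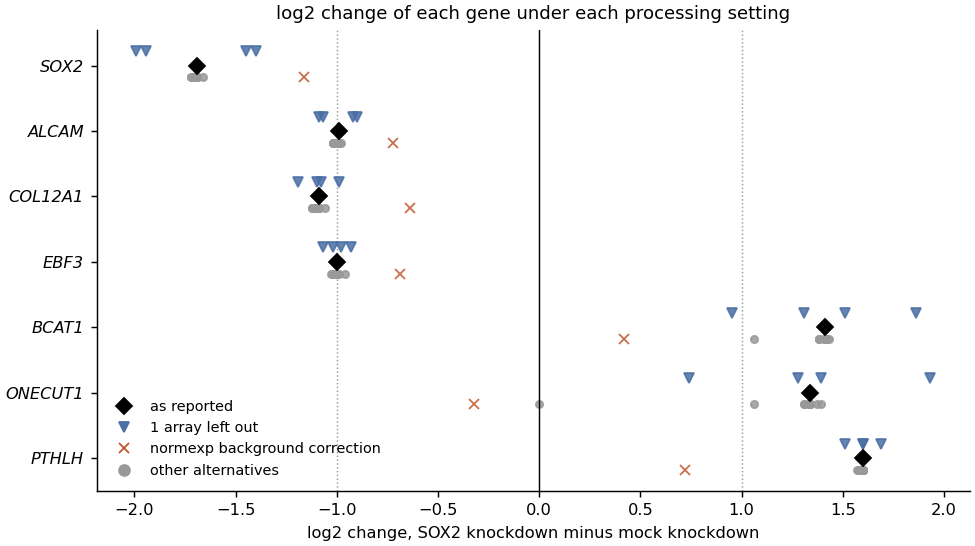
The log2 change of *SOX2* and the 6 genes as reported (black) and under each alternative, with 1 array left out (triangles), with normexp background correction (crosses) and with the other scalings, floors, filters and fits (grey); dotted lines mark 2-fold. Values of *ALCAM*, *COL12A1* and *EBF3* gather around the 2-fold line, and *ONECUT1* is the gene whose values reach 0 and below.

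Across the 4 arrays the lower and the higher genes formed separate patterns, as follows from the direction of their changes. The similarity of 2 probes was described by the Euclidean distance between their 4 log2 signals after each was centred on its own mean. The closest pair was *ALCAM* and *COL12A1*, at a distance of 0.136, followed by *COL12A1* and *EBF3* at 0.22 and by *ALCAM* and *EBF3* at 0.26. *BCAT1* and *ONECUT1* were 0.295 apart and shared a low value on mock replicate 2, and *PTHLH* was 0.817 from *BCAT1* and 1.0 from *ONECUT1*. Among 15478 other probes with 1 symbol and S/N over 3 on all arrays, those nearest to *ALCAM* were the basement membrane collagen *COL4A5* (0.0766), *EPPB9* (0.0769) and *FHL1* (0.0833). Those nearest to *COL12A1* were *LOH3CR2A* (0.0534), *LA16c-360B4.1* (0.0729) and again *COL4A5* (0.0775). Nearest to *EBF3* were *FLJ10922* (0.034), *FABP7* (0.0515), a fatty acid binding protein of radial glia, and *LEMD1* (0.0549). For *PTHLH* they were the homeobox gene *DLX2* (0.126), *LOC440545* (0.135) and *EEF1A2* (0.139). The dim probes had no neighbour as close: *FLJ39779* (0.318), *CRISPLD2* (0.365) and *OVGP1* (0.407) were nearest to *BCAT1*, and *BCAT1* itself (0.295), *OVGP1* (0.38) and *MGC39545* (0.394) to *ONECUT1*. With 4 arrays in 2 groups, such distances mostly order probes by the size of their change.

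The families and pathways of the 6 genes were examined next, each as a list compiled with earlier results of these data known and with the brightest kept probe standing for a gene. None of the listed genes had an adjusted p under 0.05 in limma. Over all probes compared 50% had a log2 change below 0, with a median of -0.0002. As the RNA is from whole cultures, fewer cells of a kind and less RNA per cell cannot be told apart.

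The list of immunoglobulin-type adhesion molecules held *ALCAM*, other such molecules and the ligand *CD6*, and 20 of its 28 genes were compared. Of these 20, 15 were below 0, with a median log2 change of -0.25 (-0.36 to -0.16 under the alternatives). The groups did not overlap in 10 of the 20 with lower and in 2 with higher signals after knockdown. The shares over all probes were 25.6% lower and 21.2% higher. The 10 became 8 with array median scaling, no further scaling or the authors' series table and 13 with normexp. Without *ALCAM*, which was picked by its change, 14 of 19 genes were below 0, with a median of -0.23. The groups did not overlap in 9 of the 19 with lower and in 2 with higher signals. *MCAM*, a close relative of *ALCAM* known as a marker of melanoma cells, had a mean of 0.538 ± 0.0673 after knockdown and of 1.12 ± 0.138 in mock cells (SD, n = 2 each), a ratio of 0.48. It was the only list member besides *NEGR1* past 2-fold. *NEGR1*, a neuronal adhesion molecule anchored by a lipid, had a ratio of 2.75 in the opposite direction and was detected on 3 of the 4 arrays. Its mock signals were low (0.05 and 0.0574), which leaves the size of this fold uncertain. The neural adhesion molecules *CHL1* (0.51), *NRCAM* (0.552) and *CNTN1* (0.583) had ratios in the direction of *ALCAM*. Those of *L1CAM* (1.21) and *NCAM2* (1.25), also neural, were in the opposite direction, with overlapping groups. *CADM1* (1.01) and *ICAM1* (0.933) had overlapping groups as well. The ALCAM ligand *CD6*, a T cell receptor, was not detected on any array.

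Of the 10 FACIT collagens, 6 were compared, and the groups did not overlap in any of the 6, with lower signals after knockdown in each, beside 25.6% of all probes. This held for 4 of the 6 with array median scaling, no further scaling or the authors' series table and for 5 with normexp. The 6 include *COL12A1*, which was picked by its change. *COL12A1* had the lowest ratio, and those of the other 5 were between 0.648 and 0.859. The 3 chains of type IX collagen lay close together, with ratios of 0.648 for *COL9A1*, 0.659 for *COL9A2* and 0.668 for *COL9A3*, which together form 1 molecule. The median log2 change of the list was -0.57, or -0.55 without *COL12A1*, and it was between -0.73 and -0.42 under the alternatives, with all 6 genes below 0 in each of them. *COL22A1* is less certain, as its other 2 kept probes had ratios of 1.02 and 0.915. *COL14A1*, the FACIT collagen closest to *COL12A1* in structure, was not detected on any array. Of the fibrillar collagens and proteins bound to the fibril, 7 of 11 were below 0, with a median log2 change of -0.08. That median was -0.33 without mock replicate 1, -0.23 without mock replicate 2, -0.14 without knockdown replicate 2, -0.04 without knockdown replicate 1 and 0.00 with normexp, and its difference from the FACIT list was not tested. *COL5A2* (0.555) and *COL27A1* (0.575) had the lowest ratios among them and *COL5A3* (1.49) the highest, and *COL1A2* and *COL3A1*, major fibril chains of connective tissue, were not compared for lack of signal.

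The EBF family was represented by *EBF3* and *EBF1*. *EBF1* had a ratio of 0.964 with overlapping groups, and its second probe had a ratio of 0.989. *ZNF521*, a zinc-finger protein that binds and inhibits EBF proteins, had a ratio of 1.06 and also overlapping groups. *EBF2* was not detected on any array, *ZNF423* was not compared for lack of signal, and *EBF4* had no probe. The change of *EBF3* was larger than those of *EBF1* and *ZNF521*. As the study picked *EBF3* by its change on these arrays, nothing can be read from this contrast.

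All 25 genes of branched-chain amino acid breakdown were compared, and 19 of them were below 0, with a median log2 change of -0.15 (-0.23 without knockdown replicate 1, and -0.19 to -0.12 under the other alternatives). *BCAT1* was the only gene of the list past 2-fold in either direction, where 1.57% of all probes were past 2-fold higher and 1.02% lower. It was picked by its change on these arrays, so nothing can be read from this contrast. Without *BCAT1*, 19 of 24 genes were below 0, with a median of -0.16. *BCAT2*, the mitochondrial aminotransferase of the same reaction, had a ratio of 0.932 with overlapping groups. The branched-chain ketoacid dehydrogenase takes the next step. Its subunits had ratios of 0.816 for *BCKDHA*, 0.752 for *BCKDHB*, 0.906 for *DBT* and 1.01 for *DLD*, with overlapping groups for *DBT* and *DLD*. Further down the pathway the lowest ratios on the brightest probes were those of *ALDH6A1* (0.635), an enzyme of valine breakdown, and *PCCB* (0.679), a subunit of propionyl-CoA carboxylase. The probes of *ACADSB* disagree, with a ratio of 0.959 on its brightest probe and of 0.519 on another. *PPM1K* (0.678) is the phosphatase that activates the dehydrogenase. *HSD17B10*, an enzyme of isoleucine breakdown, had the highest ratio after *BCAT1* (1.27).

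Of the cut-domain and liver-enriched transcription factors, 12 of 17 were compared, with 9 below 0 and a median log2 change of -0.21 (-0.24 to -0.13 under the alternatives). Without *ONECUT1*, which was picked by its change, 9 of 11 were below 0, with a median of -0.25. *ONECUT2*, the relative of *ONECUT1* on the array with signal, had a ratio of 0.933. *SATB1*, a chromatin organiser with cut domains, had the lowest ratio of the list (0.56), and *PROX1*, a homeobox factor of liver and lymphatic vessels, the highest after *ONECUT1* (1.5). *FOXA2*, a liver factor that acts beside ONECUT1, had a ratio of 0.823.

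Of the ligands, receptors, processing enzymes and skeletal partners of parathyroid hormone-related protein, 13 of 21 were compared, with 8 above 0 and a median log2 change of 0.04. Without *PTHLH* itself, 7 of 12 were above 0, with a median of 0.03. The sign of the median over all 13 turned when 1 array was left out, to -0.11 without knockdown replicate 2 and -0.02 without mock replicate 2. It was 0.22 without knockdown replicate 1 and 0.08 without mock replicate 1. The receptor gene *PTH1R* was detected on 2 of the 4 arrays and was not compared, and *PTH* itself was not detected. The proprotein convertase *FURIN*, which cleaves the precursor, had a ratio of 0.669. *PCSK6*, another convertase, had a ratio of 0.431 on its brightest probe and of 1.08 on another, so that its probes disagree. *TNFRSF11B*, which encodes the decoy receptor osteoprotegerin, had a ratio of 1.68, and *GLI3*, a mediator of hedgehog signalling, one of 0.622.

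**Figure D4:**
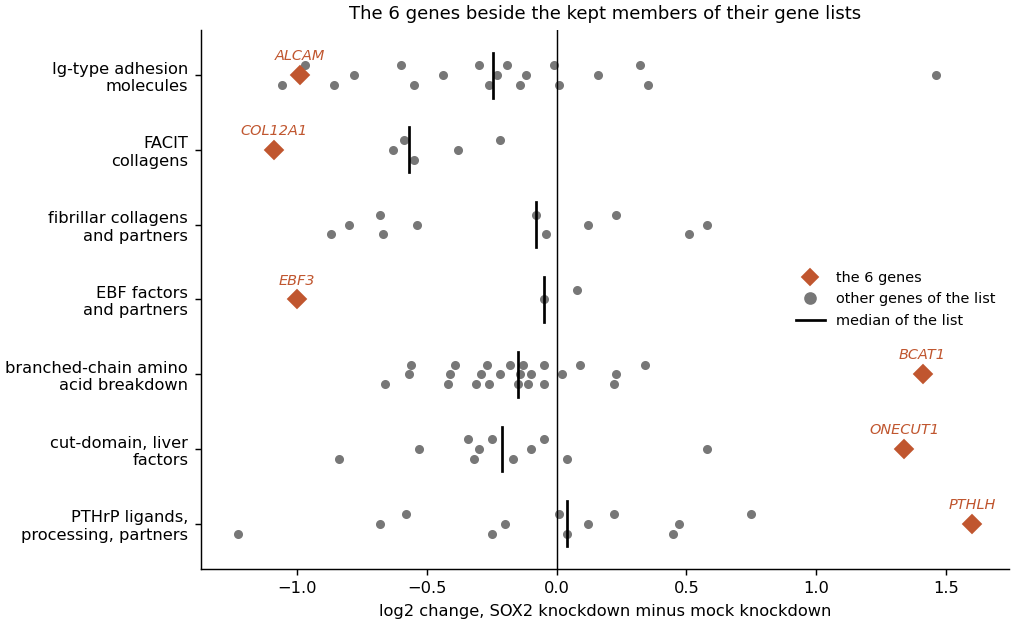
The log2 change of the 6 genes (orange) beside the other kept genes of their lists (grey), with the median of each list as a black line. All 6 FACIT collagens lie below 0, and *BCAT1*, *ONECUT1* and *PTHLH* lie to the right of every other gene of their lists. The 6 genes were picked by their change on these arrays, so nothing can be read from their place at the edge of a list.

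The other 5 genes that the study chose in the same way were read on the same scale. *CTH*, an enzyme of cysteine synthesis, had a ratio of 2.70. The zinc exporter *SLC30A1* had one of 2.68, and *SLC3A2*, the heavy chain of amino acid transporters, one of 2.11. The transcription factor *KLF5* was at 2.09. *BASP1*, a membrane-bound protein of growth cones, had 2 probes that disagree. Its brighter probe had a ratio of 1.0 with overlapping groups. The other *BASP1* probe was not above background on either mock array (S/N -2.26 and 0.6). It had a ratio of 3.59, but mock signals that cannot be told from background leave the size of this fold unknown. The groups did not overlap for the probes of the other 4 genes, and all 4 were higher after knockdown, as were *BCAT1*, *ONECUT1* and *PTHLH*. Among all probes compared this held for 21.2%. The study picked these genes by their change on the same arrays, so nothing can be read from the separation.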

How the data were processed

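The authors deposited the scanner output of 4 ABI Human Genome Survey arrays, 2 per group (mock and SOX2 knockdown). Groups came from the source names and replicate numbers from the titles. The deposited normalized signal is an intensity on a linear scale, and the S/N is a deposited score of the signal over its error. A second deposited table holds a linear ratio per probe and array, made by the authors, and was used as an alternative. The authors' methods average probes by gene ID, scale each array to the 75th percentile, ask for S/N over 3 in 1 arm and apply a 2-fold cutoff without a test. The normalization software of the scanner is not given in the sources used here.

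Spots other than gene probes were not used, nor were 210 gene probes flagged at 5000 or above in any sample. Signals were scaled to the 75th percentile over an array's gene probes, floored at 0.01 of it and put on the log2 scale. Probes whose S/N exceeded 3 on each array of 1 or both groups were fitted with limma 3.58.1 (R 4.3.3; lmFit and eBayes, no block, two-sided) and adjusted by Benjamini-Hochberg over all of them. The code was tested on simulated data. Ratios are of linear means. Fold changes of dim probes depend on the floor. The genes named are *SOX2*, the 6 genes, the 5 other genes chosen alike, up to 4 past 2-fold or else the 2 largest changes per list, and the 3 nearest probes per gene; other names were chosen after their values were seen. The 6 genes and all lists were chosen with earlier results of these data known. Symbols are those of the array's annotation. Probes of more than 1 symbol were taken for each of them.

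Alternatives were quantile, median and no further scaling, the assay-normalized column, the series table, normexp (offset 50), a higher floor (0.05), a lower floor (0.001), no S/N filter or one on all 4 arrays, averaging by gene ID, a variance trend, the replicate number as a block, other fold cutoffs and leaving out each array. Sequences were read from RefSeq (GRCh38.p14) and from the study's motif list. Promoter windows span 250 bases.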

Additional observations from a re-analysis of the deposited data

How the results depend on the processing

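The direction of *SOX2*, *ALCAM*, *BCAT1*, *COL12A1*, *EBF3* and *PTHLH* was the same under all 18 alternatives, and that of *ONECUT1* under 15 of the 17 in which it was kept. Part of this agreement was fixed in advance. The variance trend, the blocks, the S/N filters and the lower floor left the log2 change of each kept probe as it was. Leaving out 1 array cannot turn a direction where the groups do not overlap. *ONECUT1* had a log2 change of -0.32 with normexp background correction and of 0.00 with a floor of 0.05, and with S/N over 3 asked on all 4 arrays it was not kept. The groups of *BCAT1* overlapped with normexp, and those of *ONECUT1* with normexp and with a floor of 0.05. Leaving out 1 array gave log2 changes of -1.99 to -1.40 for *SOX2*, -1.09 to -0.90 for *ALCAM*, 0.95 to 1.86 for *BCAT1*, -1.19 to -0.99 for *COL12A1*, -1.07 to -0.93 for *EBF3*, 0.74 to 1.93 for *ONECUT1* and 1.51 to 1.69 for *PTHLH*.

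Calls at an adjusted p under 0.05, of which there were 0 as reported (3580 at an unadjusted p under 0.05), depended on the fit. Limma called 796 probes with array median scaling, 776 with no further scaling and 758 in the authors' series table, and in each of these it gave all probes 1 common standard error (0.29). All 7 genes then passed, with log2 changes in that order of settings of -1.71, -1.72 and -1.72 for *SOX2*, -1.01, -1.02 and -1.02 for *ALCAM*, 1.38, 1.38 and 1.38 for *BCAT1*, -1.11, -1.12 and -1.12 for *COL12A1*, -1.02, -1.03 and -1.02 for *EBF3*, 1.31, 1.31 and 1.06 for *ONECUT1*, and 1.58, 1.57 and 1.58 for *PTHLH*. A common error takes no account of the wide spread of dim probes such as *ONECUT1*. The 6 genes were picked by their change on these arrays, so calls of them are not independent evidence. The variance trend called 286 probes, among them *ALCAM* (-0.99), *COL12A1* (-1.09), *EBF3* (-1.0) and *PTHLH* (1.60), and the filter on all 4 arrays called 26, none of them *SOX2* or 1 of the 6 genes.

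The number of probes past 2-fold, 551 as reported, was 219 with normexp, 362 with a floor of 0.05, 1374 with no S/N filter, 300 with S/N over 3 on all 4 arrays and 671 to 931 with 1 array left out (931 without mock replicate 1). At other cutoffs 2235 probes were past 1.5-fold and 120 past 3-fold. The groups did not overlap in 9950 probes as reported and in 14077 to 17061 with 1 array left out, where a group of 1 array separates more easily.

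Same-numbered arrays deviated from their group means in opposite directions (r = -0.484 over 21256 probes), so the numbers were not taken to pair the samples. With the replicate block, 1914 probes had an unadjusted p under 0.05 and 0 an adjusted one; with the crossed pairing, chosen after seeing the data, these counts were 5533 and 0. Each block holds an array of each group, so a block cannot alter the log2 changes. Those of *SOX2* (-1.69), *ALCAM* (-0.99), *BCAT1* (1.41), *COL12A1* (-1.09), *EBF3* (-1.0), *ONECUT1* (1.34) and *PTHLH* (1.60) therefore stayed as they were. With the replicate block the standard errors fell for *BCAT1* and *ONECUT1* and rose for the other genes. With 2 arrays per group the values of *BCAT1* and *ONECUT1* are limited by signals close to background.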
